A study of Mus musculus with 16 samples.

Results

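The H3K27me3 libraries of Firre KO mouse embryonic stem cells with an inducible Firre transgene (KO transgene) were compared with those of the line labelled Firre KO alone (KO control) over all 102957 consensus peaks of the series, of which 5808 lay on chromosome 11 and 97149 elsewhere. The KO transgene line carried the genotype label Firre KO with a Firre inducible transgene, and the line labelled KO control carried Firre KO only. Each line gave 1 H3K27me3 library and 1 input library at 0 h and at 48 h of doxycycline, the drug that switches the transgene on, so that 4 H3K27me3 and 4 input libraries of the 16 in the series entered the comparison. All cells were embryonic stem cells kept in serum with LIF and inhibitors of MEK and GSK3, and doxycycline was the treatment named for both lines. The matched lines without the knockout (WT transgene and WT control, 8 libraries) served as a second, separate pair. Members were the peaks themselves and no peak was chosen by its value.

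H3K27me3 is the trimethyl mark on lysine 27 of histone H3, which Polycomb repressive complex 2 (PRC2) places over silent genes. In embryonic stem cells it forms wide domains over developmental regulators such as the Hox clusters, over imprinted loci and, at lower levels, over gene-poor chromatin. Firre is a long non-coding RNA transcribed from the X chromosome, known for its nuclear retention and for contacts with loci on other chromosomes. A ChIP library counts both the mark and the amount of DNA at a locus, and the input library, made without antibody, counts the DNA alone.

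Total counts over the peaks were 12756209 and 14787938 in the H3K27me3 libraries of KO transgene cells at 0 h and 48 h, and 10380781 and 12390174 in those labelled KO control. Input was shallower, with 6052088 and 6029434 counts in KO transgene cells and 3340654 and 6238484 in the libraries labelled KO control. No label gave separate cultures or clones, so the p-values rest only on these libraries, whose spread may be technical. Each line was 1 population in which the transgene cannot be told apart from any other difference between the lines. In the fit of H3K27me3 the 4 libraries left 1 residual degree of freedom per peak. The fit shared the spread fully over peaks (common dispersion 0.000189), so that a peak's own spread between libraries did not enter its error or p-value. Errors thus followed read depth, and a small p-value is not measured against the spread at that peak. Pluripotency genes were checked for the mark: of 20 listed genes 2 had a peak within 2000 bp, and Pou5f1, Nanog and Sox2 had none. All 39 Hox genes had one. Of 18 housekeeping genes 3 had one, so a missing peak does not single out stem cells.

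The Firre locus went against one label. Its input count per width, relative to the mean of the other chromosome X peaks, was 10.7 (95% exact Poisson interval 8.99 to 12.7) in KO transgene cells. The line labelled KO control had 11.1 (9.15 to 13.4), compared with 15.0 (13.0 to 17.3) in WT transgene and 0.694 (0.317 to 1.32) in WT control cells. Extra Firre DNA was thus measured in the line whose label names no transgene, at the level of the KO transgene line. The sources used here do not place this peak inside or outside the deleted sequence, so it does not test the knockout. Every direction below is relative to the line labelled KO control.

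Promoters that lay wholly inside a named peak called in H3K27me3 are shown, with CG dinucleotides in capitals, because CG-rich promoters are the usual seat of PRC2. RefSeq promoter windows run from 250 bases before to 50 after the gene start, and 7 named peaks called in H3K27me3 held at least 1 window of the set used. They are printed 5′ to 3′ on the strand of the gene, in build mm10 (GRCm38.p6): Rapgef4 at chr2:71980965-71981264 (plus strand), Mtus2 at chr5:147957070-147957369 (plus), Gnas at chr2:174327499-174327798 (plus), Hhipl1 at chr12:108306020-108306319 (plus), Il9r at chr11:32200230-32200529 (minus), Hoxc4 at chr15:103034145-103034444 (plus) and Hoxb4 at chr11:96318017-96318316 (plus).
Rapgef4: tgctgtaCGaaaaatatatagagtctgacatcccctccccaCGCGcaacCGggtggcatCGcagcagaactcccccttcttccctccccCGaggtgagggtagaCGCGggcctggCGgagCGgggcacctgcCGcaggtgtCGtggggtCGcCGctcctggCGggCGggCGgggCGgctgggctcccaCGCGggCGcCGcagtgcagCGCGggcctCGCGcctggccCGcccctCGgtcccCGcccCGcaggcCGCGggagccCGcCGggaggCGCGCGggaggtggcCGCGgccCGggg
Mtus2: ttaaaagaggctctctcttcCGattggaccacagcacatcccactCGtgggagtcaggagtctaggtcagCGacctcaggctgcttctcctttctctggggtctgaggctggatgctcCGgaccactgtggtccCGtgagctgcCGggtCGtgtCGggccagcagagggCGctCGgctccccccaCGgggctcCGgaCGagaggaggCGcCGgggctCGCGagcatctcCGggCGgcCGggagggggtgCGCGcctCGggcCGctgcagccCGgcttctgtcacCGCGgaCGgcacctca
Gnas: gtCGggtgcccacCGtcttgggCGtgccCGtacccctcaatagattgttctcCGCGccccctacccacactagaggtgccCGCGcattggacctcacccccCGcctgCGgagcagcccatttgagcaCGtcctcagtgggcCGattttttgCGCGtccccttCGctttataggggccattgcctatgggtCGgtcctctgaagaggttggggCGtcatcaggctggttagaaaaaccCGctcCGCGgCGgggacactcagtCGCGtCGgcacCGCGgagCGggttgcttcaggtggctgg
Hhipl1: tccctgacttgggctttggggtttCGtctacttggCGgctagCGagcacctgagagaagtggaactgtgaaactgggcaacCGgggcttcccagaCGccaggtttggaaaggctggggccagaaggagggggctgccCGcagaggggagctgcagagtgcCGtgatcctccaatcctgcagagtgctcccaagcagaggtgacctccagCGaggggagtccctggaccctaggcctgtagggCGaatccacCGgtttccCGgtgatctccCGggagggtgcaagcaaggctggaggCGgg
Il9r: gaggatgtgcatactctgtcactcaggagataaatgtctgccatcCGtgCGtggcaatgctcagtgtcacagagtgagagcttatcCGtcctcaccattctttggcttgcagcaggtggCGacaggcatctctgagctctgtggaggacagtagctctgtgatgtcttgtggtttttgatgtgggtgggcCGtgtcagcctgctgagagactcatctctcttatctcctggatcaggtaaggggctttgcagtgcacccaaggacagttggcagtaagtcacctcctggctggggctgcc
Hoxc4: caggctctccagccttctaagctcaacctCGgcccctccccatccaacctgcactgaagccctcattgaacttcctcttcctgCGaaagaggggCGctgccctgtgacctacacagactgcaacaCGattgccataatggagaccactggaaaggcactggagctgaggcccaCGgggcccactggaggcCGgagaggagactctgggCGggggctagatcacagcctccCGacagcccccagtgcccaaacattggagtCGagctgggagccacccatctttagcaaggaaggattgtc
Hoxb4: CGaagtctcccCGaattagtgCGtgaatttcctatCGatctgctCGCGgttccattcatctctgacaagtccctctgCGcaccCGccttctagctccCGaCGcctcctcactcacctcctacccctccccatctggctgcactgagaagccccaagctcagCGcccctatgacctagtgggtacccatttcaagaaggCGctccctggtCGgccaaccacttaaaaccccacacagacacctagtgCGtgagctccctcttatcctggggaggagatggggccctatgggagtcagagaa
The Rapgef4 window held 40 CG and Il9r 5, with 28 at Mtus2, 27 at Gnas, 13 at Hhipl1, 9 at Hoxc4 and 14 at Hoxb4. The ratio of observed to expected CG was at least 0.6 in 3 of the 7 windows, at Rapgef4 (0.908), Gnas (0.871) and Mtus2 (0.785). Of all 32817 promoter windows 35.8% reached that ratio. Where a peak held several windows of the set, the one nearest the peak centre was taken. The set gave 1 window in the HoxC peak, which spans Hoxc4 to Hoxc12, so it does not hold every gene start. A named peak without a window can thus still hold a promoter.

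Chromosome 11 carried most of the lower H3K27me3 and equally less input DNA in KO transgene cells. It held 9.62% and 9.6% of the H3K27me3 counts in KO transgene cells at 0 h and 48 h, and 10.8% at both times in the libraries labelled KO control. In input it held 9.98% and 9.96% in KO transgene cells, and 11.1% at both times in those labelled KO control. The shares of the 2 lines did not overlap in either assay. The ratio of shares was 0.893 (95% exact binomial interval 0.891 to 0.895) and 0.890 (0.888 to 0.892) in H3K27me3, and 0.898 (0.894 to 0.901) and 0.896 (0.893 to 0.899) in input. These intervals cover counting error only. An exact two-sided permutation of 2 against 2 libraries gave p = 0.333 in each assay, the smallest it can give.

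On this chromosome the quasi-likelihood test of edgeR, with p adjusted by Benjamini and Hochberg over all peaks and a threshold of 0.05, called 483 of 5807 tested H3K27me3 peaks lower (8.32%) and none higher, where 17 were higher and 1788 lower at an unadjusted p under 0.05. In input it called 26 of 5697 tested peaks lower (0.456%), and 20 of these 26 were also called in H3K27me3. Over all chromosomes 592 H3K27me3 peaks were called lower (109 off chromosome 11), and without the time block 288 (35 off it). Fits that left out 1 library, which also had no time block, called 0 lower without KO transgene at 48 h, 3 without KO transgene at 0 h (2 off chromosome 11), 77 without KO control at 0 h (8 off it) and 116 without KO control at 48 h (18 off it). DESeq2 called 1 lower, on chromosome 11. In input 27 peaks of all chromosomes were called lower, 10 without the time block, 0 without KO control at 48 h, 7 without KO transgene at 0 h and 12 without KO control at 0 h. The median log2 difference over chromosome 11 peaks was -0.17 in H3K27me3 and -0.16 in input, whereas off the chromosome the medians were 0.01 and 0.01. The H3K27me3 difference was below 0 in 84.1% of chromosome 11 peaks and in 47.9% of the others. In H3K27me3 over input the chromosome 11 median was -0.01 and 51.6% of peaks lay below 0. The shift ran along the whole chromosome: over 13 windows of 10 Mb the ratio of shares lay between 0.872 and 0.921 in H3K27me3 and between 0.883 and 0.911 in input.

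**Figure D1:**
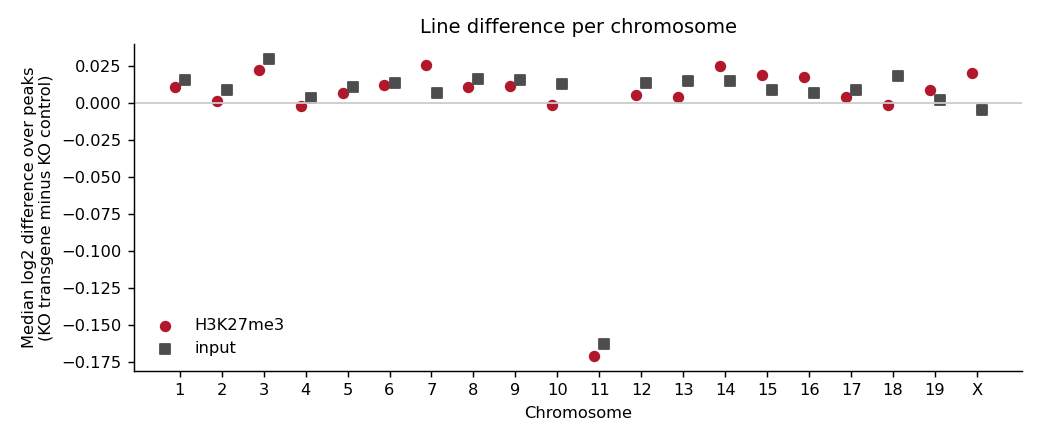
Median log2 difference over the peaks of each chromosome (y axis, KO transgene minus KO control) in H3K27me3 (circles) and in input (squares), 2 libraries against 2. Chromosome 11 stands at -0.17 in H3K27me3 and -0.16 in input, while all other chromosomes lie near 0 in both.

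Relative to WT control, and both times summed, chromosome 11 against the rest of the peaks stood at 1.19 in H3K27me3 and 1.2 in input in KO transgene cells. The line labelled KO control had 1.35 and 1.36, and WT transgene cells had 0.976 in both assays. Both KO lines thus had more chromosome 11 DNA than the WT lines, and the line labelled KO control had the most. Scaled within chromosome 11, which was added after the data were seen, 1 of its H3K27me3 peaks was called lower and none higher (513 in either direction at an unadjusted p under 0.05), and none was called in input (320 at an unadjusted p under 0.05).

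That peak lay over Il9r, the interleukin-9 receptor gene (32188194 to 32203886). It had 37.1 and 22.9 CPM (counts scaled to the library size after TMM factors) in KO transgene cells at 0 h and 48 h, and 43.6 and 42.6 CPM in those labelled KO control. Its input was 36.0 and 39.9 CPM in KO transgene cells, and 44.1 and 44.6 CPM in those labelled KO control. The libraries of the 2 lines did not overlap in either assay, and the KO transgene library at 48 h stood lowest in H3K27me3. WT transgene cells had 31.6 and 23.3 CPM of H3K27me3 at 0 h and 48 h, and WT control cells 31.3 and 33.0 CPM. Within the chromosome the log2 difference between the KO lines was -0.38 ± 0.08 (SE of the fit, 2 libraries against 2; adjusted p = 0.0466, edgeR). In the fit over all peaks it was -0.55 (adjusted p = 3.12e-11, edgeR), and it was -0.21 without KO transgene at 48 h (adjusted p = 0.83, edgeR) and -0.91 without KO transgene at 0 h.

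Away from chromosome 11, input differed at 6 of 88314 tested peaks (0.00679%), 5 higher and 1 lower. Of the higher ones 0 were called without KO control at 48 h, 1 without either library of 0 h and 3 without KO transgene at 48 h. Peaks in input pointed to a block on chromosome 4 and one on chromosome 8, whose ends were set after the values were seen. Each end was the outermost peak called in H3K27me3, within 1 Mb, whose H3K27me3 and input differences had the direction of the input call. Agreement between the assays inside a block, and the contrast with its flanks, is thus partly built in. The chromosome 4 block, over Csmd2 (a gene for a large membrane protein with CUB and sushi domains) and CK137956, ran for 314 kb (127832931 to 128146436) and held 29 peaks. KO transgene over KO control was 1.56 (95% exact binomial interval 1.48 to 1.64) at 0 h and 1.63 (1.55 to 1.71) at 48 h in H3K27me3. In input the ratio was 1.64 (1.5 to 1.8) and 1.52 (1.41 to 1.63). The mark was higher there by the same measure as the DNA, and none of the 29 peaks was called in H3K27me3 over input, whereas 15 were called in H3K27me3 and 4 in input.

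Against WT control, the chromosome 4 block stood at 0.965 (0.922 to 1.01) in input in KO transgene cells, whereas the line labelled KO control stood at 0.621 (0.587 to 0.657). In WT transgene cells it stood at 0.973 (0.93 to 1.02). The line labelled KO control was therefore the one that differed from the other 3 lines. In the 300 kb on either side, the median log2 difference between the KO lines was 0.03 and 0.06 in input, against 0.61 within the block.

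The chromosome 8 block, over Col4a1 (a collagen IV chain of basement membranes) and the non-coding Gm15418, ran for 97.1 kb (11110971 to 11208087) and held 12 peaks. In H3K27me3 the KO transgene over KO control ratio was 0.752 (0.702 to 0.805) at 0 h and 0.697 (0.655 to 0.741) at 48 h, and in input 0.75 (0.674 to 0.836) and 0.773 (0.704 to 0.848). Input against WT control was 1.02 (0.952 to 1.1) in KO transgene cells. The line labelled KO control stood at 1.34 (1.25 to 1.44) and WT transgene cells at 1.03 (0.961 to 1.1). As on chromosome 4, the line labelled KO control stood apart, here on the high side, and H3K27me3 against WT control followed at 1.36 (1.3 to 1.42). In the 300 kb to the left and right, the median log2 difference between the KO lines was -0.01 and 0.01 in input. In H3K27me3 it was 0.02 and -0.10, so that the mark was also slightly lower to the right of the block.

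**Figure D2:**
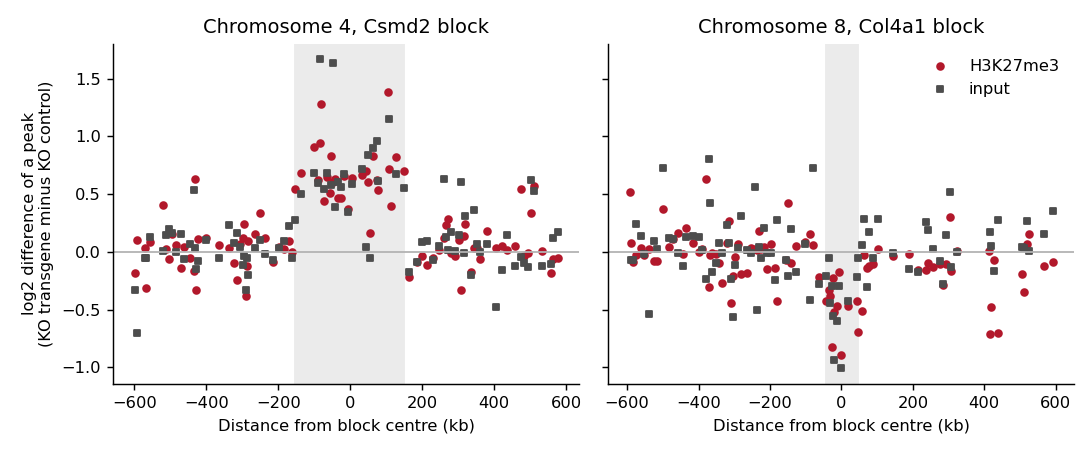
Log2 difference of single peaks (y axis, KO transgene minus KO control) in H3K27me3 (circles) and input (squares) by distance from the block centre in kb, with the block shaded. The medians of H3K27me3 and input were 0.64 and 0.61 in the Csmd2 block and -0.44 and -0.36 in the Col4a1 block. Block ends were set by peaks called in H3K27me3 with input in the same direction, so part of this agreement is built in.

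Another input peak called higher lay between genes on chromosome 12, with Coch the nearest coding gene (51536748 to 51538960). Its input was 6.25 and 6.29 CPM in KO transgene cells, and 2.4 and 2.25 CPM in those labelled KO control, with a log2 difference of 1.43 ± 0.33. Its H3K27me3 was 4.21 and 3.7 CPM in KO transgene cells, and 4.66 and 3.07 CPM in those labelled KO control. The input groups did not overlap, and those of H3K27me3 did.

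Off chromosome 11, H3K27me3 differed at few peaks and in both directions. Of 97027 tested peaks edgeR's quasi-likelihood test called 102 higher (0.105%) and 109 lower (0.112%) in KO transgene cells. Without peaks within 1 Mb of a peak called in input, a choice made after the values were seen, 87 higher and 104 lower peaks were left. All 102 and 109 had the same direction at both times, which a large summed difference brings with it and which is no second test. The median size was 0.48 on the log2 scale among the higher and -0.38 among the lower peaks. Of these called peaks 2 higher and 19 lower ones stood at least 1.5-fold over input. The number of all peaks at that level was not counted, so no share is given.

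These counts changed with the libraries and the test used. Over all peaks 102 were called higher and 592 lower, and without the time block 43 and 288 (43 and 35 off chromosome 11). Fits that left out 1 library had no time block either, here and in the results on single peaks. Without KO transgene at 48 h 0 and 0 were called, without KO transgene at 0 h 0 higher and 3 lower, without KO control at 0 h 18 and 77, and without KO control at 48 h 17 and 116. DESeq2 called 0 higher and 1 lower. With chromosome 11 left out of the fit 37 were higher and 59 lower, and with total counts as the scaling 122 were higher and 72 lower off the chromosome. In H3K27me3 over input, tested as the line by assay term, 1 of 101987 peaks was called (0.000981%), lower, and none was higher, with 2815 higher at an unadjusted p under 0.05. limma-voom called 0 higher and 5 lower in the same comparison, and without KO transgene at 0 h 2 were lower, with none when any other of the 4 conditions was left out. A difference beyond input was thus detectable at this depth for 1 peak.

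That peak lay at the start of Rapgef4 on chromosome 2 (71968482 to 71992280), the gene for Epac2, an exchange factor for Rap proteins that responds to cyclic AMP. Its H3K27me3 was 58.7 and 29.9 CPM in KO transgene cells at 0 h and 48 h, and 59.2 and 59.9 CPM in those labelled KO control. Input was 48.8 and 54.5 CPM in KO transgene cells, and 44.1 and 48.9 CPM in those labelled KO control. The low H3K27me3 value was that of KO transgene cells at 48 h alone, and the other 3 libraries stood together. The ratio was 0.99 (0.889 to 1.1) at 0 h and 0.5 (0.443 to 0.563) at 48 h. The log2 difference was -0.47 ± 0.06 in H3K27me3 (adjusted p = 2.66e-11, edgeR) and -0.62 ± 0.11 in H3K27me3 over input (adjusted p = 0.00119). Without KO transgene at 48 h the H3K27me3 difference was -0.02. The WT lines differed in the same direction at this peak (-0.25, adjusted p = 0.014), and the difference between the backgrounds did not pass the threshold (-0.23 ± 0.08, adjusted p = 0.33).

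Firre itself also differed by time. Its peak (X chromosome, 50569315 to 50570264) had 13.4 and 3.16 CPM of H3K27me3 in KO transgene cells, and 15.9 and 14.3 CPM in those labelled KO control. Input was 10.9 and 11.6 CPM in KO transgene cells, and 11.1 and 11.7 CPM in those labelled KO control. DNA did not differ detectably (ratio 0.977, interval 0.644 to 1.5, at 0 h and 0.987, 0.701 to 1.39, at 48 h), while H3K27me3 at 48 h was 0.221-fold (0.156 to 0.306) in KO transgene cells. At 0 h the ratio was 0.843 (0.676 to 1.05), an interval that includes 1. Over both times the log2 difference was -0.94 ± 0.12 (adjusted p = 1.86e-10, edgeR), and without KO transgene at 48 h it was -0.17. WT transgene cells had 19.5 and 4.32 CPM of H3K27me3 at 0 h and 48 h. WT control cells had 0.0755 and 0.0 CPM, with input counts of 3 and 6. Counts from the transgene and from the gene cannot be told apart in this peak.

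H3K27me3 was lower at both times over Tnrc18, which encodes a large chromatin-associated protein (chromosome 5, 142812403 to 142816957). H3K27me3 was 14.1 and 11.6 CPM in KO transgene cells, and 24.7 and 21.8 CPM in those labelled KO control. Input was 12.8 and 12.1 CPM in KO transgene cells, and 11.1 and 10.9 CPM in those labelled KO control. Both KO transgene libraries lay below both of the others in H3K27me3 and above them in input. The ratio was 0.572 (0.47 to 0.695) at 0 h and 0.529 (0.435 to 0.643) at 48 h, with a log2 difference of -0.86 ± 0.1 (adjusted p = 6.89e-14, edgeR). Over input it was -1.03 ± 0.21, just outside the threshold (adjusted p = 0.0503). Between the WT lines H3K27me3 differed by -0.05 (adjusted p = 0.973, edgeR), and the difference between backgrounds was -0.82 (adjusted p = 0.00235, edgeR). H3K27me3 was 8.61 and 5.91 CPM in WT transgene cells, and 8.23 and 6.8 CPM in WT control cells. The line labelled KO control was thus the highest of all lines, and KO transgene cells lay between it and the WT lines. The call ended without either KO transgene library, at -1.0 without 0 h and -0.71 without 48 h.

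Over Duox1, a dual oxidase that makes hydrogen peroxide (chromosome 2, 122336742 to 122340784), H3K27me3 was 10.1 and 6.59 CPM in KO transgene cells, and 13.8 and 12.9 CPM in those labelled KO control. Its input values overlapped, with 7.56 and 8.45 CPM in KO transgene cells, and 9.9 and 6.11 CPM in those labelled KO control. WT transgene cells had 12.0 and 6.22 CPM of H3K27me3 there, and WT control cells 10.1 and 10.3 CPM. The log2 difference in H3K27me3 between the KO lines was -0.70 ± 0.13 (adjusted p = 3.63e-05, edgeR). Leaving out either KO transgene library or KO control at 0 h ended the call. The other members of the 10 largest falls off chromosome 11, among peaks at or above the median count, were peaks in Adgrg1, Serinc2, Apba1, Sufu, Gm39420 and Gm31692 and one 4320 bp from Klf4, a pluripotency factor gene. The 10 differences ran from -0.94 to -0.58, input was above 0 in 5 and below 0 in 5, and none was called in input. Apba1 (-0.56) and Adgrg1 (-0.55) had input differences close to their H3K27me3 differences of -0.63 and -0.73.

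**Figure D3:**
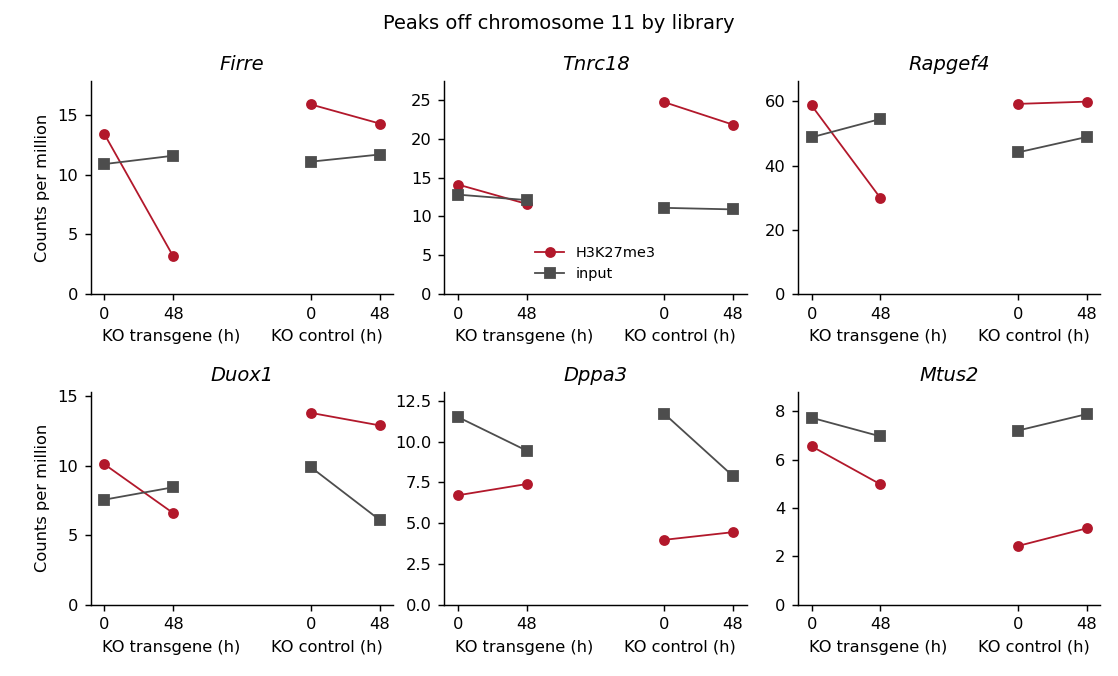
CPM in the peaks over 6 genes (y axis, from 0) for H3K27me3 (circles) and input (squares) in each library, KO transgene at the left and KO control at the right, with lines joining 0 h and 48 h of a line. Firre and Rapgef4 are low in KO transgene at 48 h only (3.16 and 29.9 CPM), Tnrc18 is low at both times, and Dppa3 and Mtus2 are higher at both times.

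Among peaks at or above the median count, the largest rise lay over the start of Mtus2, the gene of a microtubule-associated protein (chromosome 5, 147956217 to 147959267). It had 6.55 and 4.98 CPM of H3K27me3 in KO transgene cells, and 2.43 and 3.16 CPM in those labelled KO control. Input was 7.73 and 6.96 CPM in KO transgene cells, and 7.2 and 7.88 CPM in those labelled KO control. The H3K27me3 groups did not overlap and those of input did. The log2 difference was 1.01 ± 0.21 (adjusted p = 0.000543, edgeR) and differed from that of the WT lines, which was -0.13, by 1.14 (adjusted p = 0.00555, edgeR). WT transgene cells had 5.57 and 7.28 CPM of H3K27me3, and WT control cells 7.48 and 6.59 CPM. The line labelled KO control thus stood lowest of all lines. Leaving out either KO transgene library or KO control at 0 h ended the call.

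Dppa3, also called Stella, marks naive stem cells and the germ line. Its peak (chromosome 6, 122628662 to 122632753) had 6.71 and 7.4 CPM of H3K27me3 in KO transgene cells, and 3.98 and 4.45 CPM in those labelled KO control. Input was 11.5 and 9.44 CPM in KO transgene cells, and 11.7 and 7.88 CPM in those labelled KO control. The ratio was 1.69 (1.15 to 2.51) at 0 h and 1.66 (1.19 to 2.34) at 48 h, with a log2 difference of 0.74 ± 0.18 (adjusted p = 0.00868, edgeR). The WT lines stood at 0.09 and the difference between backgrounds did not pass the threshold (0.64, adjusted p = 0.276, edgeR). H3K27me3 was 8.61 and 8.95 CPM in WT transgene cells, and 8.23 and 8.22 CPM in WT control cells. Here too the line labelled KO control stood lowest, and KO transgene cells also lay below the WT lines. Leaving out any 1 of the 4 libraries ended the Dppa3 call.

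The 10 largest rises by the same rule also held peaks in Plpp4, Gadl1 and the uncharacterised Gm34032 and 5 between genes. Their log2 differences ran from 0.56 to 1.01. H3K27me3 over input in these peaks was 0.568 to 1.07. Input was above 0 in 6 and below 0 in 4, and none was called in input. Gadl1, a decarboxylase gene, was the other one whose difference between the backgrounds passed the threshold (1.05, adjusted p = 0.0109).

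Off chromosome 11, 2 peaks at least 1.5-fold over input were called higher and 19 lower. The 2 rises were in the imprinted domains of Kcnq1 and Gnas. The Kcnq1 domain (chromosome 7, 143354295 to 143471774) also covers Cdkn1c, a growth-restraining cell cycle inhibitor, and is silenced on the paternal chromosome by the RNA Kcnq1ot1. It had 375 and 378 CPM of H3K27me3 in KO transgene cells, and 346 and 343 CPM in those labelled KO control. Input was 232 and 235 CPM in KO transgene cells, and 235 and 233 CPM in those labelled KO control. The groups did not overlap in H3K27me3 and overlapped in input. The log2 difference was 0.13 ± 0.03 (adjusted p = 0.00208, edgeR), and it was 0.16 between the WT lines (adjusted p = 4.2e-08), which share no library with it. Each of the 4 libraries, when left out, ended the call in the KO background.

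The Gnas peak (chromosome 2, 174323743 to 174329827), at a locus whose imprinted transcripts include the G protein subunit Gs alpha, had 29.3 and 23.9 CPM of H3K27me3 in KO transgene cells, and 23.9 and 18.9 CPM in those labelled KO control. Its log2 difference was 0.32 ± 0.09 (adjusted p = 0.0387, edgeR), and its input difference was 0.24 ± 0.17. The lines touched at 23.9 CPM across times. Leaving out any library but KO control at 0 h ended the call, and so did leaving chromosome 11 out of the fit. Of the 19 lower peaks in this class 5 were taken as the largest falls at or above the median count: Tnrc18, 2310015A10Rik (-0.35), Rnf220 (-0.33), Hhipl1 (-0.23) and the Mapk15 peak (-0.23). Their input differences ran from -0.11 to 0.22. Hhipl1 and the Mapk15 peak differed between backgrounds by -0.31 (adjusted p = 0.0121) and -0.36 (adjusted p = 0.000934). The Mapk15 value was -0.05 without KO transgene at 48 h, -0.15 without KO control at 0 h and -0.41 without KO transgene at 0 h, and each of these ended the call.

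The Hox clusters were lower in KO transgene cells in all 6 regions, by -0.07 to -0.26 on the log2 scale. HoxC (chromosome 15) had 522 and 499 CPM of H3K27me3 in KO transgene cells, and 588 and 547 CPM in those labelled KO control. Its input was 228 and 217 CPM in KO transgene cells, and 204 and 220 CPM in those labelled KO control, so that the input values overlapped and those of H3K27me3 did not. The region difference was -0.14 ± 0.02 (adjusted p = 1.02e-07, edgeR over 22300 gene regions) and it was 0.12 in the WT lines. The HoxC peak stood at -0.15, and its call ended at -0.18 and -0.12 without KO transgene at 0 h and at 48 h, at -0.10 without KO control at 0 h and at -0.15 without the time block.

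HoxD had 698 and 631 CPM in KO transgene cells, and 733 and 667 CPM in those labelled KO control, so that the lines overlapped across times and differed at each time (-0.07 ± 0.02, adjusted p = 0.0182, edgeR). HoxB (chromosome 11) had 834 and 790 CPM in KO transgene cells, and 1010 and 926 CPM in those labelled KO control, with -0.24 ± 0.02 in H3K27me3 and -0.17 ± 0.04 in input. The Hox directions were the same with total counts, DESeq2 size factors, an offset that followed the ratio over input and input as an offset. None of the 6 Hox peaks was called with input as an offset, and the HoxD and Hoxc13 peaks were not called in the first place (adjusted p = 0.136 and 0.071).

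Between the WT lines the HoxB (0.12), HoxC (0.14) and HoxD (0.13) peaks differed the other way. The test of the difference between backgrounds passed at the HoxB (-0.38, 7.77e-64), HoxC (-0.30, 1.17e-20) and HoxD peaks (-0.21, 2.57e-15, all edgeR adjusted p). It did not pass at the Hoxc13 peak, which was at 0.02 in the WT lines (difference -0.16, adjusted p = 0.253). At the HoxB peak, on chromosome 11, input differed by -0.18 between the KO lines. The part of DNA in these values was not tested.

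**Figure D4:**
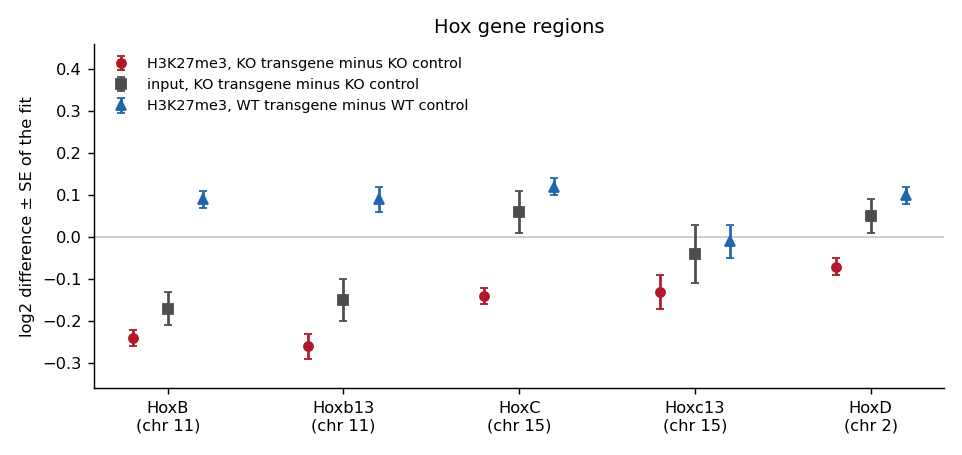
Log2 difference ± SE of the fit at 5 Hox gene regions for H3K27me3 in the KO lines (circles), input in the KO lines (squares) and H3K27me3 in the WT lines (triangles), each as transgene minus control. H3K27me3 lies below 0 in the KO lines at all 5 regions, and input lies below 0 by a similar size at the chromosome 11 regions HoxB (-0.17) and Hoxb13 (-0.15).

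Over gene regions, which sum the peaks within 2000 bp of a gene, edgeR called 296 of 20762 regions off chromosome 11 higher (1.43%) and 239 lower (1.15%), and 616 of 1538 on it lower (40.1%). DESeq2 called 4 higher and 5 lower off the chromosome. With total counts as the scaling 458 were higher and 153 lower off the chromosome, and leaving out single libraries left 14 to 173 higher and 17 to 162 lower there, the fewest without KO control at 0 h. The median over all regions was 0.01 off chromosome 11 and -0.17 on it, and 0.01 and -0.17 in input. The 6 Hox regions were all called lower, 4 of them off chromosome 11. Of 22 neuroectoderm regulator regions off chromosome 11 none was called, with a median of -0.02 and 15 below 0. Of 20 mesoderm regulator regions off it 1 was lower, Tbx18 (-0.17 ± 0.05, adjusted p = 0.00897, edgeR), a T-box factor of the heart and ureter, with a median of -0.03. Of 11 endoderm regions 1 was lower, the region shared by Pdx1, a pancreas regulator, and Cdx2 (-0.12 ± 0.03, adjusted p = 0.00572, edgeR).

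Trophoblast markers had 3 of 9 regions off chromosome 11 called lower, Krt8 (a keratin; -0.26 ± 0.07), Tfap2a (an AP-2 transcription factor; -0.19 ± 0.03) and the Cdx2 region already given, with a median of -0.09. Krt8 had 36.0 and 31.3 CPM in KO transgene cells, and 41.8 and 38.9 CPM in those labelled KO control. Tfap2a had 195 and 163 CPM in KO transgene cells, and 216 and 193 CPM in those labelled KO control, which overlap across times. Primed epiblast markers had 1 of 7 regions called, Lef1, a mediator of Wnt signalling, which was higher (0.17 ± 0.03, adjusted p = 1.47e-05, edgeR). Lef1 had 247 and 243 CPM in KO transgene cells, and 212 and 225 CPM in those labelled KO control. Of 8 primitive endoderm, 11 germline, 3 housekeeping and 4 X inactivation and Firre contact regions none was called, and of 11 fibroblast regions off chromosome 11 none. Pluripotency regions were Dppa3, called higher (0.46 ± 0.10), and Esrrb (-0.04 ± 0.03), not called.

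Imprinted genes off chromosome 11 had 3 of 18 regions higher and 3 lower. The higher ones shared the Kcnq1 domain: Kcnq1 (0.11 ± 0.02), Cdkn1c (0.14 ± 0.03) and Kcnq1ot1 (0.14 ± 0.03). The lower ones were Peg10 (-0.14 ± 0.04) and Sgce (-0.15 ± 0.04), which are neighbours, and Trappc9 (-0.21 ± 0.07). The Gnas region, which holds 5 peaks, was not called (0.01 ± 0.05, adjusted p = 0.974, edgeR). On chromosome 11 Grb10, an adaptor that restrains insulin signalling, was lower by -0.13 ± 0.03 with an input difference of -0.11 ± 0.04. Of 7 Polycomb gene regions 3 were called lower, all among the 4 on chromosome 11. Among them were Ezh1 (-0.22, input -0.09) and Cbx2 (-0.24, input -0.16), and Otx1, Tbx4, Meox1 and Col1a1 were lower there too. Among Firre and its neighbours on the X chromosome 1 of 7 regions was called, Firre itself. The neighbours Hs6st2 (-0.08 ± 0.08) and Arhgap36 (-0.04 ± 0.07) were not called.

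The differences depended weakly on how strongly a peak was marked. Off chromosome 11 the median H3K27me3 difference was 0.04 in the 24288 peaks with the lowest H3K27me3 over input and -0.03 in the top percent, where 60.1% of the 972 peaks lay below 0. The top percent depended on the scaling, with -0.014 and 55.6% below 0 for total counts, -0.009 and 53.9% for the offset that followed the ratio over input, and -0.075 and 64.1% for input as an offset. Between the WT lines the order was the other way, with a median of -0.02 in the least marked peaks, where 54.1% lay below 0, and 0.11 in the top percent. Input in the KO lines was -0.01 in the least marked peaks and 0.02 in the top percent. Of the 972 peaks in the top percent 1 was called higher and 13 lower in the KO lines, against 102 and 109 of 97027 tested off chromosome 11. The ordering by H3K27me3 over input used the KO libraries themselves, so these medians are a description.

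**Figure D5:**
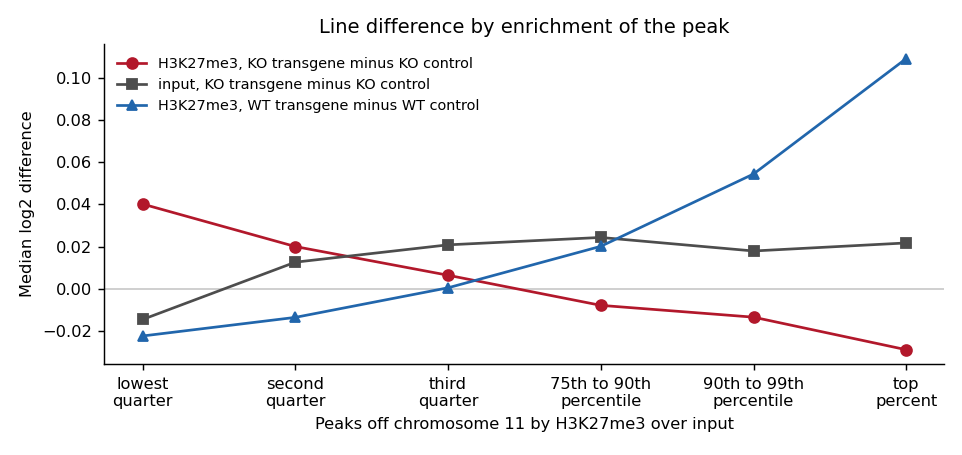
Median log2 difference (y axis) over peaks off chromosome 11 grouped by H3K27me3 over input in the KO libraries (x axis, low to high) for H3K27me3 in the KO lines (circles), input in the KO lines (squares) and H3K27me3 in the WT lines (triangles). The KO lines run from 0.04 to -0.03 and the WT lines from -0.02 to 0.11.

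Over all 102957 peaks the line difference itself differed between backgrounds at 454 (0.441%; KO transgene minus KO control, against WT transgene minus WT control). It was more positive in the KO background at 45 and more negative at 409, of which 190 lay on chromosome 11. With total counts as the scaling the numbers were 53 and 190. Between the WT lines 233 of 97149 peaks off chromosome 11 were called higher (0.24%) and 32 lower (0.0329%). Of the 102 peaks higher in the KO lines off chromosome 11, 67 were above 0 in the WT lines and 3 were called higher there. Of the 109 lower peaks 53 were below 0 in the WT lines, 1 was called lower and 5 were called higher. Of all peaks off chromosome 11, 49.1% were below 0 in the WT lines.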

How the data were processed

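The authors deposited whole-number read counts per consensus peak for 16 libraries, not normalized. The deposited peak list gave 1 score per peak, the peak caller's fold and −log10 p-values, which describe the peak and no library. MACS2 2.2.71, BWA 0.7.17-r1188, DESeq2 1.26.0, featureCounts and build mm10 appear in the submitters' processing notes, with no step attached to any. For the peak call, the libraries used are not given in the sources at hand. Peak starts are printed as deposited.

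Counts were tested with edgeR 4.0.16 (R 4.3.3) by the quasi-likelihood F test with TMM factors, filterByExpr, time as block and Benjamini-Hochberg adjustment at 0.05. H3K27me3 over input was the line by assay term. Log2 values carry the SE of the fit. CPM used library sizes scaled by TMM factors. Intervals are exact binomial or Poisson at 95% and cover counting error only. Peaks were tied to RefSeq gene spans (GRCm38.p6, the build of mm10) with 2000 bp on either side, giving 22302 regions. Spans lack exons, so exonic or intronic position is not given. Alternatives used DESeq2 1.42.0, limma 3.58.1, other scalings and filters and each library left out. The tests were checked on simulated counts with a spread about as small as that of the fits. This check cannot show how the p-values hold where libraries vary more. In it the test over input recovered 6 of 100 changes of 0.5 and 62 of 100 changes of 1 on the log2 scale. The test of H3K27me3 peaks recovered 41 and 94.

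The members and the 15 gene lists were chosen with earlier results of these data known. Peaks were to be named where called in H3K27me3 and over input in 1 direction at both times, at or above the median count and over 100 kb apart: the 10 largest rises and falls off chromosome 11, 5 of each at 1.5-fold over input and 3 of each on chromosome 11. Since 1 peak passed, the call over input was dropped after the values were seen, peaks within 1 Mb of an input call were left out, and chromosome 11 was scaled within itself. Input calls, Firre, the Hox clusters and up to 4 called members per list and direction were also named. Some regions named by the rule are not reported here.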

Additional observations from a re-analysis of the deposited data

Results flagged for a closer look

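The line difference in the KO background differed from that in the WT background, by edgeR's test of the difference over all peaks, at 12 of the named peaks called in H3K27me3. The values are log2 differences of the differences. At Firre it was -8.95, where WT control had 1 and 0 counts, so that the size depends on the fit and is no bound. Input at Firre, relative to the other X peaks, was 15.0 in WT transgene and 0.694 in WT control cells. It was -0.82 at Tnrc18, -0.92 at Sufu, -0.99 at Apba1, 1.05 at Gadl1 and 1.14 at Mtus2. At peaks with strong H3K27me3 it was -0.31 at Hhipl1 and -0.36 at the Mapk15 peak. The Hox peaks gave -0.30 (led by Hoxc12), -0.38 (led by Hoxb9) and -0.40 (Ttll6 with Hoxb13). The Gm15418 peak in the chromosome 8 block, where input differs between the KO lines, gave -0.47. The input of the line labelled KO control differs from that of the other lines on chromosome 11 and in that block. The input of the WT lines differs at Firre. The difference of differences was fitted to H3K27me3 libraries alone. The part of DNA in it was therefore tested at none of the 12 peaks, Firre, Hoxb9, Ttll6 and Gm15418 among them.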

How the results depend on the processing

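Counts are given as higher and lower in KO transgene cells against the line labelled KO control. In H3K27me3 peaks (102 and 592) DESeq2 gave 0 and 1, no time block 43 and 288, input as an offset 1 and 2, and chromosome 11 left out 37 and 59. Single libraries left out gave 0 to 18 higher and 0 to 116 lower. Total counts, DESeq2 size factors, limma-voom, a minimum mean of 50, no filter, all 8 libraries, a robust dispersion and the offset that followed the ratio over input stayed within 1.5 times of both counts. On chromosome 11 the 483 lower peaks became 1 with scaling within it. In input (5 and 27) no time block gave 3 and 10 and a minimum mean of 50 gave 41 lower. Single libraries left out gave 0 to 3 higher and 0 to 27 lower, with 0 and 0 without KO control at 48 h. In H3K27me3 over input (0 and 1) limma-voom gave 5 lower, a minimum mean of 50 gave 2, and single conditions left out gave 0 to 2. In gene regions (296 and 855) total counts gave 458 higher, DESeq2 4 and 118, and single libraries left out 14 to 173 higher and 225 to 566 lower (14 and 225 without KO control at 0 h, 173 and 566 without KO transgene at 0 h, 30 and 241 without KO control at 48 h, 58 and 400 without KO transgene at 48 h). Between backgrounds (45 and 409) total counts gave 190 lower. With peaks outside chromosome 11 as denominator its share ratio was 0.882 and 0.878 in H3K27me3 and 0.886 and 0.884 in input. The peak near CK137956 in the chromosome 4 block turned to -0.47 with input as an offset. Of the 37 named peaks 34 were called, and 34 lost their call without KO transgene at 48 h, 31 without KO transgene at 0 h, 26 without KO control at 0 h, 21 without KO control at 48 h, 33 with DESeq2, 31 with input as an offset, 15 without the time block, 12 with chromosome 11 left out and 3 with total counts. The causes were not tested. Fits with a library left out had no time block, and the lone library was assumed to vary like the others. No paired analysis was possible because the replicate number is 1 in every group, so time, and not a number, was the block between the lines. The tests of H3K27me3 and of input had 1 residual degree of freedom and the test over input had 2.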
